A study of Homo sapiens with 16 samples.

Results

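The stretch of chromosome 13 from 90 to 110 Mb (hg19) is a 20 Mb piece of the long arm in which LSD1 islands were dense, relative to the rest of the list, in a pair of libraries. LSD1 (KDM1A), a histone demethylase, was mapped by chromatin immunoprecipitation followed by sequencing in 4 HEK-based lines, that is, lines made from a human embryonic kidney line. Every island of the 8 deposited lists that overlapped it by any base was taken, 1126 of 85586 islands in all. The bounds were chosen by island density in 2 libraries, replicate 2 of Epi-HOT and replicate 1 of Epi-HOTΔP, so the number of islands in that pair is a description and carries no test.

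Epi-CTR, Epi-HOT, Epi-HOTΔP and Epi-HOTΔL (the labels spell the Δ as <delta>) had 2 cultures each, and each culture gave an immunoprecipitated (IP) and an Input library, 16 in all. The labels tie each list to the IP and the Input of 1 culture. What the lines express is background and not in the labels: Epi-CTR serves as control, Epi-HOT carries the long non-coding RNA HOTAIR, Epi-HOTΔP HOTAIR without its PRC2-binding part, and Epi-HOTΔL HOTAIR without its LSD1-binding part. The labels say nothing of clones, of the promoter that drives HOTAIR or of any treatment. The series' design text calls the 2 cultures of a line independent. The lists hold no reads, so depth is unknown, and a place without an island may be a place with fewer reads.

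LSD1 removes methyl groups from histone H3 lysine 4 in complexes with CoREST, and is known both from gene promoters and from distal regulatory elements. HOTAIR has been described as a scaffold that holds LSD1 and PRC2, a histone methyltransferase, together. The stretch covers much of bands 13q31 to 13q33, where long gene deserts and very long genes alternate with a denser middle part.

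An annotation of hg19 was not used here, so no island was assigned to a gene, and the genes are given by name and order alone. All 50 genes of a list known to lie in the stretch were found in the RefSeq table of GRCh38.p14, in the same order, 2 of them under newer symbols. Between MIR17HG and MYO16, the first and the last of them, that table has 241 entries, of which 53 are protein-coding, 101 are long non-coding RNAs and 14 are miRNAs. GPC5 and GPC6 encode glypicans, proteoglycans of the cell surface, and open the row after MIR17HG. SOX21, ZIC5 and ZIC2 encode transcription factors of the developing nervous system. ABCC4 encodes a drug and cyclic nucleotide transporter, CLDN10 a tight junction claudin, DOCK9 and FARP1 exchange factors of small GTPases, and PCCA a subunit of propionyl-CoA carboxylase. NALCN encodes a sodium leak channel and FGF14 a regulator of voltage-gated sodium channels. ERCC5 (nucleotide excision repair) and LIG4 (end joining) are DNA repair genes, EFNB2 encodes an ephrin ligand, and MYO16, an unconventional myosin, closes the row.

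MIR17HG hosts a miRNA cluster, the best known regulatory content of the stretch, and its 6 main mature arms are shown for that reason, 5′ to 3′, from RefSeq (GRCh38.p14, plus strand), with the seed (bases 2 to 8) in capitals.
hsa-miR-17-5p: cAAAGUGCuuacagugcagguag
hsa-miR-20a-5p: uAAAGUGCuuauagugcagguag
hsa-miR-18a-5p: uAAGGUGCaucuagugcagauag
hsa-miR-19a-3p: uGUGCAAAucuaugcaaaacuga
hsa-miR-19b-3p: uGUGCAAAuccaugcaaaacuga
hsa-miR-92a-3p: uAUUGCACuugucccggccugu
The 6 arms have 4 seeds: miR-17-5p and miR-20a-5p share one, miR-19a-3p and miR-19b-3p share another, and miR-18a-5p and miR-92a-3p each have their own. The island lists measure LSD1 on chromatin and say nothing of the level of these miRNAs.

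Epi-HOTΔP replicate 1 held 321 islands in the stretch, more than any other library. Epi-HOTΔL replicate 1 followed with 153, Epi-HOTΔP replicate 2 with 150, Epi-CTR replicate 1 and Epi-HOT replicate 2 with 130 each, Epi-CTR replicate 2 with 127, Epi-HOTΔL replicate 2 with 69 and Epi-HOT replicate 1 with 46. The number in Epi-HOT replicate 2 was thus close to that of the control libraries, although its islands were wider and its list was far shorter (1778 islands, against 20592 and 14938 in Epi-CTR). The stretch made up 90.2% of the chromosome 13 islands of Epi-HOTΔP replicate 1 and 78.3% of those of Epi-HOT replicate 2. It made up 50.5% in Epi-HOTΔP replicate 2 and 22.1% to 39.9% in the other 5 libraries, while it spans 21.0% of the chromosome between its first and last island.

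In 3 of the 4 lines the replicates differed by more than 2 times. Epi-CTR had 128.5 ± 2.12 islands in the stretch (SD, n = 2), Epi-HOT 88 ± 59.4, Epi-HOTΔP 235.5 ± 121 and Epi-HOTΔL 111 ± 59.4. The higher replicate had 2.83 times the islands of the lower in Epi-HOT, 2.14 times in Epi-HOTΔP and 2.22 times in Epi-HOTΔL, against 1.02 times in Epi-CTR. With 2 replicates per line an exact test of 2 lines cannot go below p = 0.333, so none was made.

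Against the rest of the autosomes the islands were 56.0 times denser in Epi-HOTΔP replicate 1 (16.1 against 0.287 islands per Mb) and 10.9 times in Epi-HOT replicate 2 (6.5 against 0.595). In the 6 libraries that had no part in placing the bounds, the ratio was 2.62 in Epi-HOTΔP replicate 2, 1.28 in Epi-HOTΔL replicate 1, 1.19 and 0.880 in replicates 2 and 1 of Epi-CTR, 0.985 in replicate 1 of Epi-HOT and 0.611 in Epi-HOTΔL replicate 2. It was above 1 in 3 of these 6 and below 1 in 3. Their mean log2 ratio was 0.18 ± 0.70 (SD, n = 6) and a difference from 0 was not detected (exact two-sided sign-flip permutation p = 0.625; adjusted 0.625 over 3 measures; 6 libraries allow no p below 0.0313). Without Epi-HOTΔP replicate 2 the mean was -0.063, and with islands of an FDR of at most 0.001 it was -0.34. Set against the rest of chromosome 13 alone, the stretch was the denser in all 6, with a mean log2 ratio of 0.90 (exact sign-flip permutation p = 0.0313, the smallest possible, not adjusted). The ratios ran from 1.07 in Epi-HOTΔL replicate 2 to 3.85 in Epi-HOTΔP replicate 2. That reference includes the span just before the lower bound, which was sparse in every library, so the shared direction depends in part on where the bound lies.

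**Figure D1:**
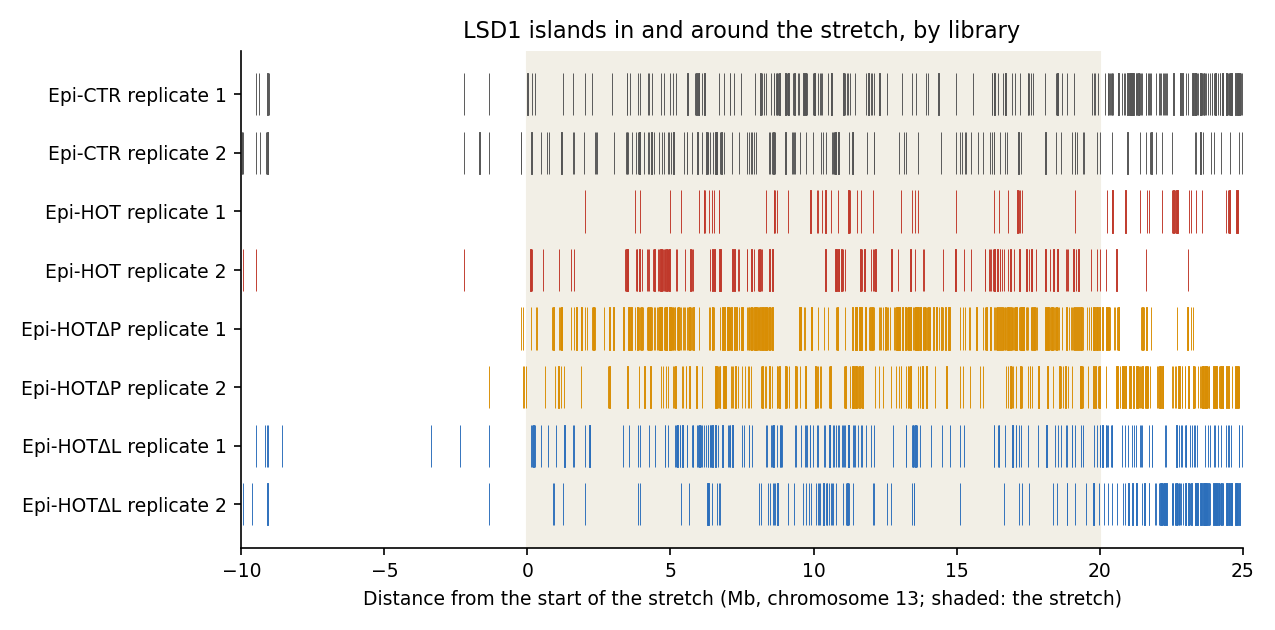
Islands of each library (bars) by distance in Mb from the start of the stretch, which is shaded; colours mark the lines. Epi-HOTΔP replicate 1 fills the shaded span with 321 islands and thins out beyond it, while Epi-CTR replicate 1 and Epi-HOTΔL replicate 2 are densest to the right of it.

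All 8 libraries had few islands before the lower bound, while the upper bound was an edge in some only. The 5 Mb before the stretch held 0 to 5 islands per library. The first 5 Mb within it held 61 in Epi-HOTΔP replicate 1, 38 in replicate 2 of Epi-HOT and 35 in replicate 2 of Epi-CTR, against 4 to 22 in the others. Beyond the upper bound the order turned. The next 5 Mb held 113 islands of Epi-CTR replicate 1, 88 of Epi-HOTΔL replicate 2 and 83 of Epi-HOTΔP replicate 2, each more than any 5 Mb of the stretch in that library. Epi-HOT replicate 2 had 5 there and Epi-HOTΔP replicate 1 had 23. Counts were also low in Epi-CTR replicate 2 (20) and Epi-HOT replicate 1 (21), while Epi-HOTΔL replicate 1 had 49. In Epi-HOT replicate 1 the 21 compare with 4 to 17 in the successive 5 Mb parts of the stretch.

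Just inside the lower bound, Epi-HOT replicate 2 had its first island at 90107801 to 90118200 and Epi-HOTΔP replicate 1 at 90123201 to 90131400. Their nearest islands outside were at 87776201 to 87781200 and at 89835201 to 89843600. At the upper bound the last islands inside were at 109996601 to 110005400 and 109990601 to 110000400, and the first outside at 110229001 to 110237200 and 110098401 to 110109200. In Epi-HOTΔP replicate 1 the Mb before the lower bound held 2 islands and the Mb after the upper bound 13.

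Within the stretch the libraries crowded in different places. Epi-HOTΔP replicate 1 was densest between 13 and 14 Mb from the start, with 29 islands in that Mb, and Epi-HOT replicate 2 between 4 and 5 Mb, with 21. Epi-CTR replicate 1 was densest between 9 and 10 Mb, with 20 islands, where Epi-HOT replicate 2 had 0 and Epi-HOTΔP replicate 1 had 9. Epi-HOTΔL replicate 2 was densest between 10 and 11 Mb, with 13, where Epi-HOTΔP replicate 1 had 5.

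The longest span without an island lay at almost the same place in the pair that placed the bounds, at 98568601 to 100411000 in Epi-HOT replicate 2 (1842.4 kb) and at 98579201 to 99481400 in Epi-HOTΔP replicate 1 (902.2 kb). In the 902.2 kb common to both, singled out after its values were seen, Epi-CTR replicates 1 and 2 had 18 and 7 islands, Epi-HOTΔP replicate 2 had 10, Epi-HOTΔL replicates 1 and 2 had 10 and 6, and Epi-HOT replicate 1 had 5. The longest empty spans of the other libraries lay elsewhere, among them 92001801 to 93879000 in Epi-HOTΔL replicate 2 and 107294201 to 109144400 in Epi-HOT replicate 1.

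Neighbouring islands stood closest in Epi-HOTΔP replicate 1. Its median gap was 26 kb (quartiles 9.15 and 54.8 kb), and 55 of its 320 gaps (17.2%) were at most 5 kb. The median gap was 67.4 kb in Epi-HOT replicate 2, 70.6 kb in Epi-HOTΔP replicate 2, 76.5 kb in Epi-HOTΔL replicate 1, 80.8 and 88.4 kb in Epi-CTR replicates 1 and 2, 98.9 kb in Epi-HOTΔL replicate 2 and 166 kb in replicate 1 of Epi-HOT. Gaps of at most 5 kb were 12.4% in Epi-HOT replicate 2 and 3.29% to 9.40% in the others. The list names give a gap setting of 1000 bp, and no gap in the stretch was under 1200 bp.

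By median width, islands were widest in the Epi-HOTΔP replicates and in replicate 2 of Epi-HOT. The median width in the stretch was 10 kb in Epi-HOTΔP replicate 1, 9.3 kb in Epi-HOT replicate 2 and 7.7 kb in Epi-HOTΔP replicate 2. It was 4.5 kb in Epi-HOT replicate 1, 3.8 and 4 kb in Epi-CTR replicates 1 and 2, and 2.8 and 4.2 kb in Epi-HOTΔL replicates 1 and 2. The Epi-HOTΔP libraries both lay above all libraries of Epi-CTR and Epi-HOTΔL, while the Epi-HOT libraries fell on either side of the gap. Islands over 10 kb made up 48.6%, 41.5% and 34.0% of the islands in the first 3 libraries and 1.96% to 11.6% in the other 5. Outside the stretch the shares were 45.0%, 25.9% and 34.0% in those 3, but also 31.4% in replicate 1 of Epi-HOT and 38.3% in Epi-HOTΔL replicate 2, so the same split was not seen there.

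Together the islands covered 3760.8 kb (18.8% of the stretch) in Epi-HOTΔP replicate 1, 1460.8 kb in Epi-HOTΔP replicate 2, 1321.8 kb in Epi-HOT replicate 2 and 247 to 610 kb in the other 5. With an FDR of at most 0.001 Epi-HOTΔP replicate 2 covered 275 kb, against 3483 kb in its partner replicate. Per line this was 604 ± 7.35 kb in Epi-CTR, 784.5 ± 759.9 kb in Epi-HOT, 2611 ± 1626 kb in Epi-HOTΔP and 425 ± 81.5 kb in Epi-HOTΔL (SD, n = 2).

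Wide islands were not limited to the stretch. In Epi-HOTΔP replicate 1 the median outside the stretch was 9.8 kb and in Epi-HOT replicate 2 it was 8 kb. Among the 6 libraries that had no part in placing the bounds, islands in the stretch were narrower than in the rest of the autosomes in 5 and of the same median width in Epi-CTR replicate 1. The largest differences were in Epi-HOTΔL replicate 2 (4.2 against 7.6 kb) and Epi-HOT replicate 1 (4.5 against 7 kb). The mean log2 ratio of medians was -0.37 ± 0.33 (SD, n = 6; exact two-sided sign-flip permutation p = 0.0625, adjusted 0.188 over 3 measures), which did not pass 0.05. With 1 library at exactly 0, 0.0625 was the smallest p that these values could give. It reached the smallest possible p, 0.0313 before adjustment, with an FDR of at most 0.001, with both bounds 2 Mb further in, and with islands closer than 5 kb merged. Against the rest of chromosome 13 the mean was -0.17 (exact sign-flip permutation p = 0.125).

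**Figure D2:**
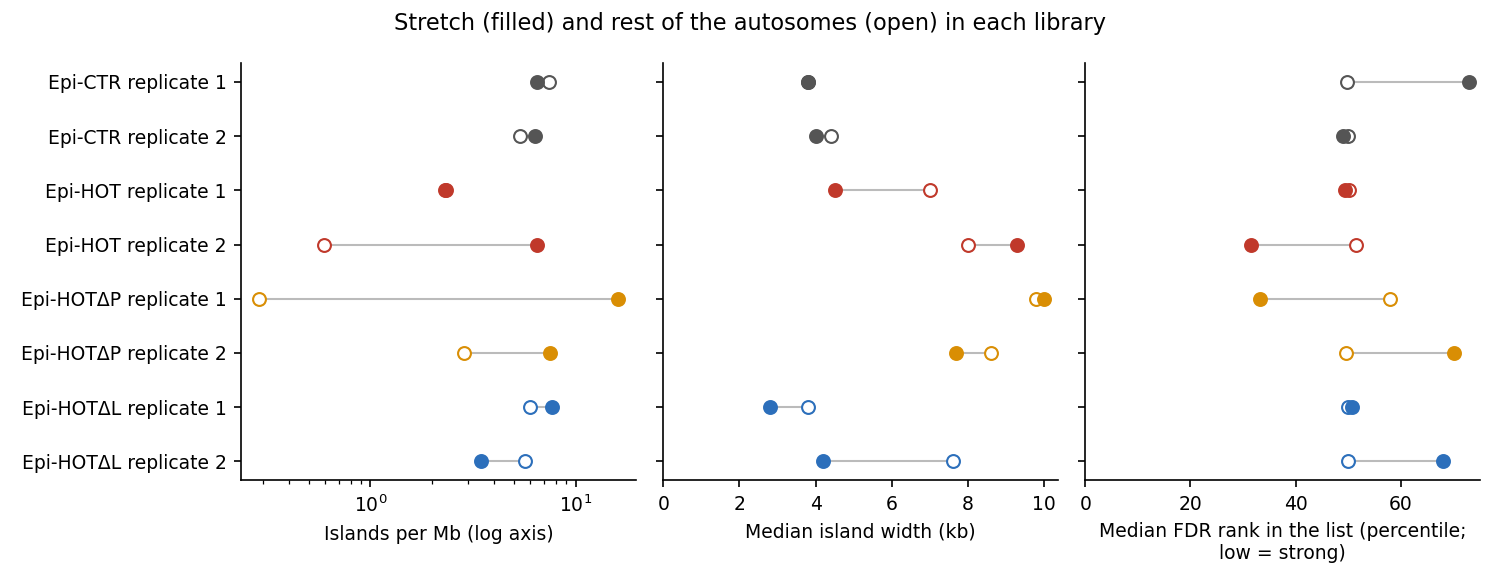
Islands per Mb (log axis), median island width and median rank by FDR (percentile within the library's own list, low meaning strong) in the stretch (filled) and in the rest of the autosomes (open); each row is 1 library. Filled and open points lie furthest apart in density for Epi-HOTΔP replicate 1 (16.1 against 0.287 islands per Mb), and filled points lie left of the open ones in width in 5 libraries.

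The only value per island is its false discovery rate (FDR), the authors' own, which was used to rank islands within a list. In Epi-HOTΔP replicate 1 the strongest island of the stretch was at 94172601 to 94183800, with an FDR of 6.56e-194, rank 7 of its list, and the next at 103393801 to 103403400 (1.72e-151, rank 12). Both met an island of Epi-HOT replicate 2 and of no other library. In Epi-HOT replicate 2 the strongest were at 94721401 to 94731600 (4.05e-46, rank 4), which no other library held, and at 93452801 to 93468800 (2.24e-43, rank 5), where Epi-CTR replicate 2 had an island too. Of the 100 islands with the smallest FDR, the stretch held 40 in Epi-HOTΔP replicate 1 and 20 in Epi-HOT replicate 2, against 0 to 2 in each of the other 6. Of the whole autosomal list the stretch held 28.8% and 7.32% in that pair and 0.440% to 1.86% in the 6, so the 0 to 2 of 100 are close to the share of the list.

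In those 6 libraries the stretch was of middling or low strength. The median island of the stretch stood at the 73.0th percentile of its list in Epi-CTR replicate 1, at 70.1 in Epi-HOTΔP replicate 2, at 68.1 in Epi-HOTΔL replicate 2, and between 49.0 and 50.7 in the other 3 of the 6, where a high percentile means a weak island. It stood at 31.6 in Epi-HOT replicate 2 and 33.2 in Epi-HOTΔP replicate 1. Inside minus rest, the 6 libraries differed by 10.1 ± 11.6 percentile points (SD, n = 6), 4 of them being weaker inside (exact two-sided sign-flip permutation p = 0.219, adjusted 0.328 over 3 measures). In Epi-HOTΔP replicate 2 the best island of the stretch had rank 878, and with lists cut to equal length this library kept 1 island there, against 321 in its partner replicate.

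In 4 of the 6 the strongest island was at most 4.2 kb wide. In Epi-CTR replicate 2 the first was 2.4 kb wide, at 93456801 to 93459200 (FDR 6.55e-21, rank 46), inside the wider Epi-HOT replicate 2 island named above. In Epi-HOT replicate 1 it was at 93745001 to 93749200 (3.72e-16, rank 39), followed by 104965601 to 104968000 (6.90e-15, rank 50), and in Epi-HOTΔL replicate 1 it was 0.6 kb at 90153801 to 90154400 (2.73e-14, rank 7). Epi-CTR replicate 1 led with 26.6 kb at 95900001 to 95926600 (4.88e-11, rank 1372), also its widest, and next had 2.4 kb at 91999201 to 92001600 (1.05e-10), a place called in Epi-HOT replicate 1 and both Epi-HOTΔL libraries as well. Epi-HOTΔL replicate 2 led with 14.4 kb at 100630001 to 100644400 (5.26e-10, rank 1044). The widest island of any library in the stretch, 60 kb at 95917801 to 95977800, belonged to Epi-CTR replicate 2 (4.61e-03).

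Co-location between libraries was measured as the Jaccard index, that is, bases under islands of both libraries over bases under islands of at least 1 of them. The highest of the 28 pairs was Epi-HOT replicate 2 with Epi-HOTΔP replicate 1, at 0.103, with 472.8 kb shared. Of the islands of Epi-HOT replicate 2, 51.5% met one of Epi-HOTΔP replicate 1, and 21.2% the other way. The Epi-HOTΔP replicates came next with 0.102 and 482.8 kb. Here 60 of the 150 islands of replicate 2 (40.0%) met 62 of the 321 of replicate 1 (19.3%). Elsewhere on chromosome 13 these pairs had raw indices of 0.0725 and 0.0183. Epi-HOT replicate 2 and Epi-HOTΔP replicate 1 held only 0.477 and 0.464 islands per Mb there, against 6.5 and 16.1 in the stretch. The index was not corrected there for the length covered, so it does not compare the stretch with the rest of the chromosome.

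Overlap grows with the length covered. Divided by what the product of the covered shares gives, the shared length was 1.90 for Epi-HOT replicate 2 with Epi-HOTΔP replicate 1 and 1.76 for the Epi-HOTΔP replicates. By this measure the pair Epi-HOT replicate 1 and Epi-HOTΔL replicate 2 stood first, at 10.96, with a Jaccard index of 0.0881 and 13 islands each in contact. Epi-CTR replicate 1 with Epi-HOT replicate 1 had 6.35 and the Epi-CTR replicates 3.14. Values below 1 were found for Epi-HOTΔP replicate 1 with Epi-HOT replicate 1 (0.873) and with Epi-HOTΔL replicate 2 (0.689), and for Epi-HOT replicate 2 with Epi-HOTΔL replicate 2 (0.914). These ratios rest on between 22.2 and 482.8 kb shared and have no test.

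The other 3 pairs of the same line had lower Jaccard indices than the Epi-HOTΔP replicates. The Epi-CTR replicates had an index of 0.0499 in the stretch against 0.119 on the rest of the chromosome, the Epi-HOTΔL replicates 0.0204 against 0.0722, and the Epi-HOT replicates 0.0146 against 0.0152. None of these indices was corrected for the length covered. The mean over the 4 same-line pairs was 0.0467, against 0.0409 for the other pairs, and without Epi-HOTΔP replicate 1 or 2 it was 0.0283, against 0.0427 and 0.0420. These means include the libraries that placed the bounds and are a description.

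Merged by any shared base, the islands of all 8 lists formed 662 regions in the stretch. Of these 403 (60.9%) were called in a single library, against 59.6% of all autosomal regions. Epi-HOTΔP replicate 1 alone held 141 of the 403, which is 45.8% of its regions, against 45.2% in the rest of the autosomes. For Epi-HOTΔL replicate 1 it was 59 (40.4% against 43.0%), for Epi-CTR replicate 1 it was 51 (42.5% against 32.8%) and for Epi-HOTΔP replicate 2 also 51 (34.7% against 25.4%). Islands in at least 4 libraries were seen in 39 regions (5.89%), against 9.57% over all autosomal regions. Merging can join islands that do not meet through an island of another library. In 16 of the 39, at least 4 libraries lay over 1 and the same base, a check not made outside the stretch.

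A single region was called in 7 libraries, at 93913001 to 93923600 (10.6 kb), with 6 of them over 1 base. The 1 list without it was that of Epi-HOTΔP replicate 1, the library with the most islands in the stretch. The FDR of the region was 3.47e-11 in Epi-HOT replicate 2 (rank 269 of 1778) and 4.41e-08 in Epi-CTR replicate 2 (rank 882 of 14938). In the other libraries with the region it was between 1.56e-05 and 4.69e-03. The next, at 107214001 to 107256200 (42.2 kb), was called in 6 libraries, without Epi-HOT replicate 2 and Epi-HOTΔL replicate 2, but no base of it lay under islands of more than 3. Its FDR was 7.39e-12 in Epi-HOTΔP replicate 1 (rank 597 of 1116) and 5.56e-05 in Epi-HOTΔL replicate 1 (rank 1039 of 16768). In the other 4 it was between 4.46e-03 and 0.0285. FDRs of different lists do not order the libraries by strength, since each serves only as a rank within its own list. The 9 regions in 5 libraries included 102095401 to 102117400, 106321601 to 106325800 and 109990601 to 110005400, each with all 5 over 1 base. They were named after their values were seen.

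Regions held by both libraries of a line numbered 59 for Epi-HOTΔP (8.91%, against 0.473% of all autosomal regions), 18 for Epi-CTR (2.72% against 15.0%), 14 for Epi-HOTΔL (2.11% against 11.7%) and 9 for Epi-HOT (1.36% against 0.567%). Of the 59, 27 had no island in any other line. The pair that placed the bounds shared 62 regions (9.37% against 0.413%), 28 of them with no other library. For the 27 and the 28 no share over all autosomal regions is given here, so they do not set the stretch apart. Since the islands of that pair chose the stretch, the counts for Epi-HOTΔP and Epi-HOT follow in part from the choice and are given as a description. The shares for Epi-CTR and Epi-HOTΔL lie below their background, with the regions of the chosen pair counted in the denominator.

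Lines were then compared region by region, over the islands of the 4 libraries involved. Gained means an island in both replicates of the line named first and in none of the other, lost the reverse, and kept an island in all 4. Except for Epi-HOTΔL against Epi-CTR, the calls use islands of a library that placed the bounds. None of them carries a test. Counts with a library left out, at a stricter FDR or with lists of equal length have no share over all autosomal regions beside them.

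Epi-HOT against Epi-CTR addresses the place of LSD1 with HOTAIR present. Among 352 regions 2 were gained (0.568%, against 0.145% over all autosomal regions), 8 lost (2.27% against 15.1%) and 2 kept (0.568% against 0.382%), and 295 (83.8% against 70.8%) had an island in a single library. The gained regions were at 102066201 to 102078200, where the Epi-HOT FDRs were 1.45e-05 and 2.45e-03, and at 96531801 to 96539200 (0.0238 and 2.94e-06). The latter was in no library of another line. Lost regions were led by 95900001 to 95979800 (79.8 kb), where the Epi-CTR FDRs were 4.88e-11 and 4.61e-03, and by 108487601 to 108490600 (2.10e-04 and 9.95e-12). The kept regions were the one called in 7 libraries and 106321601 to 106325800. Without Epi-HOT replicate 1 or 2, 94 or 29 regions were gained, without Epi-CTR replicate 1 or 2, 90 or 103 were lost. Without Epi-HOT replicate 2, 15 were lost, and with lists cut to equal length 0.

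Epi-HOTΔL against Epi-HOT asks what changes when HOTAIR lacks the part that meets LSD1. Of 336 regions 5 were gained (1.49%, against 11.6% over all autosomal regions), 2 lost (0.595% against 0.263%) and 1 kept (0.298% against 0.196%). The gained regions were led by 2 kb at 108869401 to 108871400 (8.04e-07 and 3.54e-03 in the Epi-HOTΔL replicates), 4 kb at 109791201 to 109795200 (6.66e-03 and 5.45e-03) and 5.6 kb at 101040401 to 101046000 (5.62e-07 and 0.0127). Epi-CTR replicate 1 also held the first and the last of these, and Epi-HOTΔP replicate 1 the other. Lost were 104958801 to 104968400 (6.90e-15 and 3.52e-13 in the Epi-HOT replicates) and 96531801 to 96539200. Without Epi-HOTΔL replicate 1 or 2, 51 or 121 regions were gained, and leaving out Epi-HOT replicate 1 or 2 gave 104 or 22 lost. There were 8 gained without Epi-HOT replicate 1 and 4 lost without Epi-HOTΔL replicate 2.

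Epi-HOTΔP against Epi-HOT asks the same for the part that meets PRC2. Of 482 regions 43 were gained (8.92%, against 0.814% over all autosomal regions), 5 lost (1.04% against 1.14%) and 1 kept (0.207% against 0.0807%). The gained regions were led by 105473201 to 105481000, where the FDR was 6.79e-64 in Epi-HOTΔP replicate 1 and 1.37e-05 in replicate 2, by 107478401 to 107487600 (1.21e-18 and 4.04e-05) and by 91871601 to 91878800 (3.65e-25 and 4.10e-05). None of these 3 was called in another line. The kept region, at 106782401 to 106816200, had islands of the 4 libraries of Epi-HOT and Epi-HOTΔP and of no library of Epi-CTR or Epi-HOTΔL. No base of it lay under islands of more than 3 of the 4, since merging joined them. The lost regions included 106322201 to 106325400, where Epi-HOT replicate 2 had an FDR of 6.33e-27. Leaving out Epi-HOTΔP replicate 1 or 2 gave 126 or 248 gained regions, and leaving out Epi-HOT replicate 1 or 2 gave 54 or 34 lost. At an FDR of at most 0.001 there were 9 gained regions and with lists of equal length 1.

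Both deletion lines were compared with the control too, which uses the same control libraries as the first comparison. Against Epi-CTR, Epi-HOTΔP had 45 gained regions of 542 (8.30%, against 0.304% over all autosomal regions), 7 lost (1.29% against 15.3%) and 1 kept (0.185% against 0.150%, with at most 2 of the 4 libraries over 1 base), and the first 3 gained were those named above. Epi-HOTΔL had 4 gained of 396 (1.01% against 4.17%), 11 lost (2.78% against 6.14%) and 1 kept (0.253% against 5.00%). Its gained regions included 103496401 to 103503800, which only the Epi-HOTΔL libraries held (0.0311 and 9.69e-04), and its lost regions 108487601 to 108490600 and 99718001 to 99722000, which Epi-HOT lacked as well. Without Epi-HOTΔP replicate 1 or 2 there were 116 or 252 gained regions against Epi-CTR, and without Epi-HOTΔL replicate 1 or 2 there were 45 or 119. Without Epi-CTR replicate 1 or 2, Epi-HOTΔP lost 68 or 78 regions and Epi-HOTΔL 93 or 107. Epi-HOTΔP lost 12 without either of its own replicates, and Epi-HOTΔL gained 7 without Epi-CTR replicate 1.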

How the data were processed

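LSD1 ChIP-seq islands of 8 cultures (4 lines, 2 replicates) were used; line and fraction come from the labels, replicate numbers from titles. Bowtie2 2.1.0, SICER 1.1 and the build hg19 appear, with no role given, in the submitters' processing notes. Per the labels' list names, windows were 200 bp, gaps 1000 bp and the FDR limit 0.05; a further filter is not explained in the sources used here. The deposited lists hold 1 value per island, an FDR, which is a p-value adjusted by the authors. There are no reads, folds or totals, so depth and the precision it gives are unknown. P-values ask whether the mean difference between stretch and rest over 6 libraries departs from 0, given the spread between these libraries. Epi-CTR and Epi-HOTΔL entered with both replicates, Epi-HOT and Epi-HOTΔP with a single library each. Replicates of a line were treated as independent.

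Coordinates count from 1. Islands overlapping the stretch by any base were members. Regions are islands of several lists merged by at least 1 shared base, autosomes only. The rest of the autosomes runs from the first to the last island of each chromosome. Tests were exact sign flips over the 6 libraries that did not place the bounds. A planned test of same-line overlap is not reported, since it uses the libraries that placed them. Benjamini-Hochberg adjustment ran over 3 sign-flip tests. Named islands were the 2 of smallest FDR and the widest per library, and the longest empty span; named regions were those called in the most libraries (7 or 6) and, per comparison and direction, up to 3 with the best of the worse rank; a selection of these is printed. The members and lists were chosen with earlier results of these data known. The scripts were tested on simulated lists. Alternatives were an FDR of 0.001, bounds moved by 2 Mb, membership by midpoint, islands closer than 5 kb merged, 50% reciprocal overlap, lists of equal length (1116 islands), the rest of chromosome 13 as reference, and each library left out. Tools were scipy 1.17.1 and pandas 2.3.3 with numpy 2.4.6 under Python 3.11.15; matplotlib 3.10.9 drew the figures.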

Additional observations from a re-analysis of the deposited data

Results flagged for a closer look

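The strength of islands in the stretch relative to the rest of a library's list pointed opposite ways in Epi-HOT and Epi-HOTΔL. The median FDR percentile was lower inside, that is, stronger, in both Epi-HOT libraries (by -0.686 and -19.9 percentile points) and higher inside in both Epi-HOTΔL libraries (by 0.656 and 18.1), a difference of -19.7 between the means. Replicate 1 of each line lay within 1 percentile point of 0, and Epi-HOT replicate 2 is a library on which the bounds were placed. Replicates of a single line lay as far apart elsewhere, at 23.1 and -1.11 in Epi-CTR and at -24.9 and 20.5 in Epi-HOTΔP. The difference was not tested.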

How the results depend on the processing

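No paired analysis was possible because the results between lines come from no test: they are counts and lengths of the islands that chose the stretch, given as a description. With an FDR of at most 0.001 the stretch held 35 and 50 islands in Epi-CTR replicates 1 and 2, 14 in Epi-HOT replicate 1, 33 in Epi-HOTΔP replicate 2 and 25 and 17 in Epi-HOTΔL replicates 1 and 2, against 98 and 299 in the pair that placed the bounds. With lists cut to the 1116 islands of smallest FDR the same 6 libraries held 0, 15, 12, 1, 9 and 1, and the other pair 101 and 321. Covered length fell at that FDR to 174 and 204 kb in the Epi-CTR replicates to 59.4 and 79.6 kb in the Epi-HOTΔL replicates, to 64.6 kb in Epi-HOT replicate 1 and to 275 kb in Epi-HOTΔP replicate 2, against 1011 and 3483 kb in the pair. Bounds 2 Mb further in gave 521.4 and 520.8 kb in Epi-CTR. Bounds 2 Mb further out gave 908 and 689.8 kb there and 593 kb in Epi-HOTΔL replicate 2.

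The p-values of the alternatives were not adjusted over the 3 measures. The density of the stretch in the 6 libraries changed direction at an FDR of at most 0.001 (mean log2 ratio -0.34) and without Epi-HOTΔP replicate 2 (-0.063). It ranged from -0.063 to 0.36 with a library left out. Against the rest of chromosome 13 (0.90) it passed the threshold of 0.05 before adjustment only. Width passed 0.05 before adjustment, at the smallest possible p, with an FDR of at most 0.001 (-0.59), bounds further in (-0.35) and close islands merged (-0.37). It ranged from -0.45 to -0.27 with a library left out. There no p below 0.0625 was possible, or below 0.125 with Epi-CTR replicate 1, whose ratio is 0, among the 5. With a library left out the FDR rank ranged from 7.49 to 12.3 percentile points and the same-line overlap from 0.0283 to 0.0574. At an FDR of at most 0.001 they were 7.28 points and 0.0198, and with 50% reciprocal overlap the latter was 0.0767. The FDR rank passed the threshold under none of the alternatives run.

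Counts of gained, lost and kept regions were small and moved with most settings. At an FDR of at most 0.001 they were 1, 3 and 0 for Epi-HOT against Epi-CTR, 0, 2 and 0 for Epi-HOTΔL against Epi-HOT, 9, 2 and 0 for Epi-HOTΔP against Epi-HOT, 0, 6 and 0 for Epi-HOTΔL against Epi-CTR, and 12, 5 and 0 for Epi-HOTΔP against Epi-CTR. With lists of equal length they were, in that order, 2, 0 and 0; 0, 2 and 0; 1, 2 and 0; 0, 0 and 0; and 1, 0 and 0. With 50% reciprocal overlap, which counts islands of replicate 1, they were 2, 5 and 0; 2, 2 and 0; 32, 3 and 0; 3, 6 and 0; and 31, 4 and 0. With a library left out, gained regions ranged from 3 to 94, 5 to 121, 47 to 248, 5 to 119 and 51 to 252, lost regions from 8 to 103, 3 to 104, 5 to 54, 12 to 107 and 12 to 78, and kept regions from 3 to 8, 1 to 4, 1 to 12, 2 to 5 and 5 to 7. Fewer libraries make each of these calls easier to reach. For the other moves the cause was not tested. No share over all autosomal regions is given for these settings, so the counts do not compare the stretch with the rest of the autosomes.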

Other observations

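The profile of islands over the 20 bins of 1 Mb in the stretch was compared between libraries with Spearman's rho, as a description, since bins share gene density and base composition. The highest rho was 0.81, between replicate 2 of Epi-HOTΔP and replicate 1 of Epi-HOTΔL, followed by 0.65 between the latter and replicate 1 of Epi-HOT. The pair that placed the bounds had 0.60. Epi-HOTΔP replicate 1 had 0.48 with its partner replicate, and -0.10 and -0.15 with Epi-CTR replicate 2 and Epi-HOTΔL replicate 2. The replicates had 0.58 in Epi-HOTΔL, 0.24 in Epi-CTR and 0.20 in Epi-HOT. Epi-CTR, whose numbers of islands in the stretch were the most equal, was thus not the line with the most alike profiles.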
